A study of Mus musculus with 6 samples.

Results

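Genes that license replication origins and build the replication fork were followed here across T cell preparations from miR-142 KO and WT spleens. The list names 52 mouse genes for S-phase cyclins and kinases, origin recognition and loading factors, the replicative helicase, polymerases, the sliding clamp and its loader, and fork and chromatin assembly factors. Of these, 51 had a probe set assigned to them alone, among 18193 such genes on the array, and each was read at whichever of its probe sets was brightest on average. The expression of Chaf1a was not analysed here. The list was drawn up by function, with earlier results of these data known.

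The KO group held 3 arrays, each from the spleen of 1 male mouse lacking miR-142, a microRNA made throughout the blood lineages. The WT group held 3 arrays from wild-type male littermates, and mice of both genotypes were C57BL/6 and 10 weeks old. T cells were enriched by negative selection, which removes other cells and leaves T cells unlabelled, and their RNA was amplified before hybridization to Affymetrix 1-colour arrays. The labels do not give the allele, or any transgene or Cre line. All values are log2 probe-set intensities, and differences are KO minus WT on that scale with the moderated standard error of limma. Rose and fell stand for a two-sided limma p below 0.05 after Benjamini-Hochberg adjustment over all 45037 probe sets tested.

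In each cell cycle, the origin recognition complex marks the sites where replication will begin. CDC6 and CDT1 then load the MCM helicase there in an inactive form, which is called licensing, and geminin blocks CDT1 once S phase has begun. Cyclin-dependent kinases and the CDC7 kinase with its partner DBF4 switch the helicase on by bringing in CDC45 and the GINS complex. Polymerase alpha with primase starts each strand, polymerases delta and epsilon extend it on the clamp PCNA, and FEN1 and LIG1 join the lagging-strand pieces. Many of these genes are textbook targets of E2F transcription factors and are low in resting T cells.

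Arrays within a genotype correlated at 0.986 to 0.995 in KO and 0.994 to 0.996 in WT across probe sets, against 0.940 to 0.965 between the genotypes. The transcript listed as Mir142 had 5.97, 5.88 and 5.90 in KO and 7.93, 8.13 and 7.67 in WT, and fell by 1.99 ± 0.13 (limma adjusted p = 6.6e-05). Whether its probe set lies in the deleted part is not given in the sources used here. KO replicate 1 stood apart in the 18S ribosomal control, at 7.86 against 9.15 and 9.19 in KO replicates 2 and 3 and 9.47 to 9.66 in WT. The hybridization controls, bacterial transcripts added in fixed amounts, averaged 9.85 ± 0.06 in KO and 10.21 ± 0.10 in WT (SD, n = 3 each). The 3′ minus 5′ signal of Actb, a sign of RNA quality, was 0.40, 0.36 and 0.32 in KO and 0.20, 0.16 and 0.23 in WT, without overlap, and its part in the differences was not tested.

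Most of the replication genes were higher in KO. Of 51 genes 45 rose and 0 fell, against 18.6% of all genes that rose and 18.6% that fell. At an unadjusted p under 0.05 the number that fell was 0. In 46 of the 51 the lowest KO array exceeded the highest WT array, which was so for 24.1% of all genes. In 0 of the 51 the highest KO array was under the lowest WT array, against 29.7% of all genes. The median difference was 1.19 over the 51 genes and -0.06 over all genes. At least 2-fold higher were 30 of the 51, against 1549 of all 18193 genes. Cyclin E2 (Ccne2), the licensing factor Cdc6, cyclin A2 (Ccna2), the GINS subunit Gins1 and the helicase cofactor Mcm10 led, with differences from 2.40 to 3.24. Orc1, Orc3, Orc4, Orc5, Gins4 and Rpa1 were not called.

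**Figure D1:**
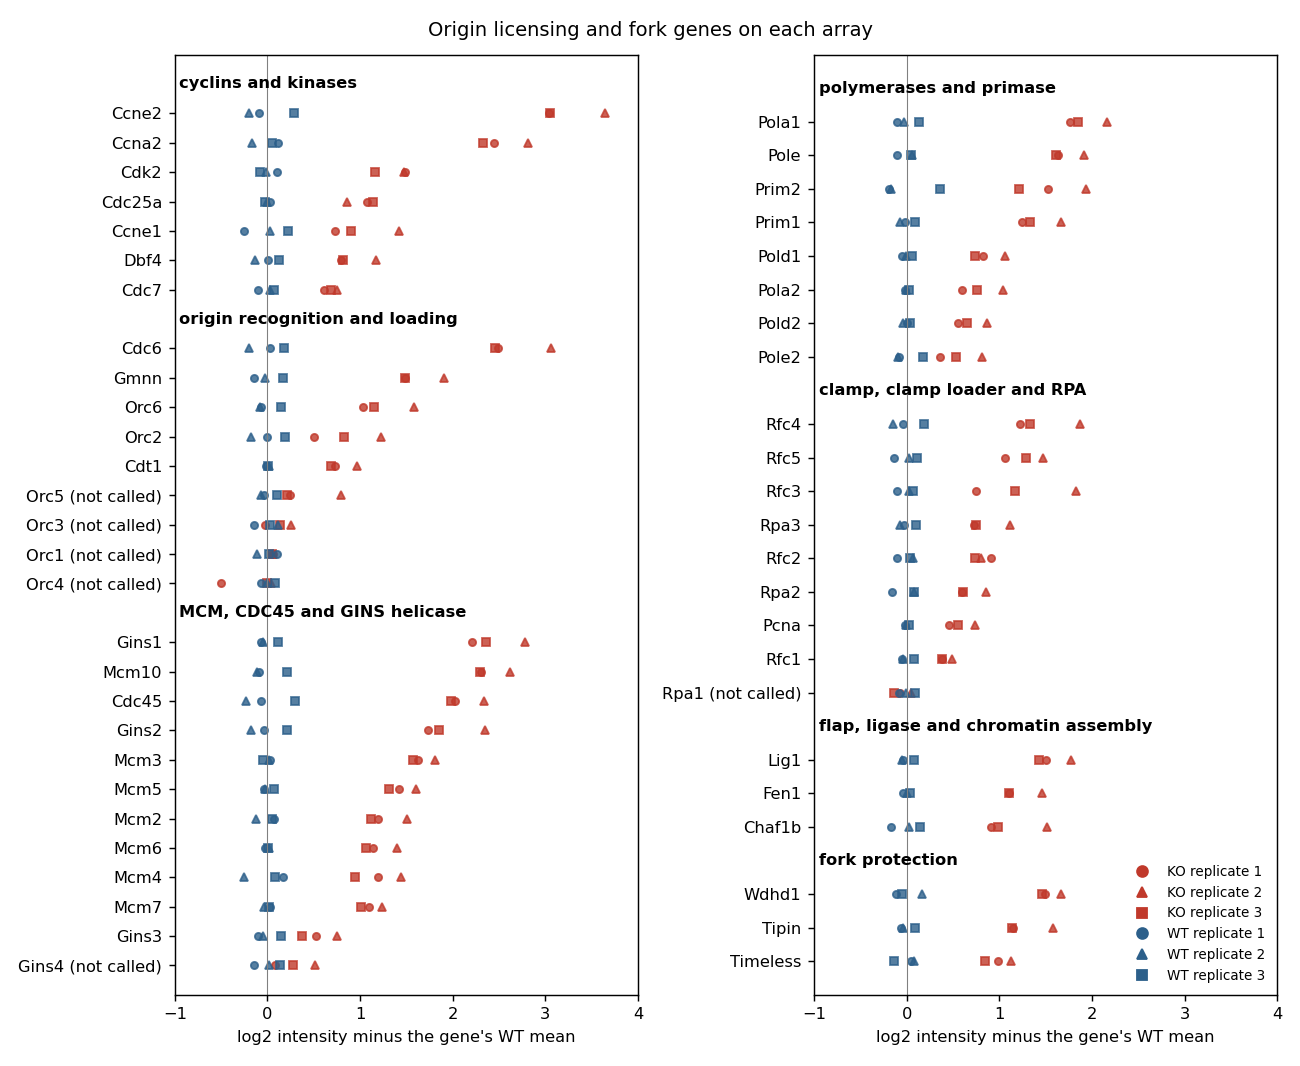
Values of the 51 replication genes on each of the 6 arrays, drawn as the log2 intensity minus the mean of the gene's 3 WT arrays and grouped by role. Red symbols are KO arrays, blue symbols are WT arrays and the shape gives the replicate. The KO symbols lie to the right of the WT symbols in 46 of 51 genes, and the triangle of KO replicate 2 is the rightmost KO symbol in 48.

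Promoter sequences are shown because every role held genes that rose, and a part of the promoters in that rise was not tested. RefSeq windows on GRCm38.p6, from 250 bases before to 50 bases after a start site, were given for 41 of the 52 genes. Chaf1a is among the 41, and 7 of the 41 had several start sites. Ccne2, Ccna2, Gins1, Gins2, Gins4, Gmnn, Mcm4, Pole, Prim2, Rfc2 and Tipin had no window. Several of the largest rises, those of Ccne2, Ccna2 and Gins1, were thus not searched. The windows were searched on both strands for the core of the E2F site in its 4 spellings TTCCCGC, or else TTCGCGC, or else TTGCCGC, or else TTGGCGC. At least 1 such word was present in 27 of the 41 genes, or 65.9%, against 16.0% of 14452 array genes with a window and 10.9% of all 27025 genes in the table. Words on both strands can share letters, as in the palindrome TTGGCGCCAA of Cdc25a and Rfc1, and at least 2 separate stretches of words were present in 31.7% of the 41 genes and in 2.01% of the array genes. In 23 of the 27 genes a word lay within 50 bases of a start site, against 42.4% of the array genes that held a word. The windows of the listed genes had a median GC content of 62.3%, against 58.3% for the array genes, and the words are rich in G and C. A match is a description of the letters, not a binding site.

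In the windows below the capitals mark the E2F words and their reverse complements. Cdk2, Cdc6, Mcm6 and Pola1 rose and hold words, Cdc45 rose without any, and Orc3 holds a word and was not called. Mcm10, whose window is not printed, also rose without any, and the word of Cdc6 lies at base -135 from the start site. In Mcm6, TTGGCGC and the reverse complement of TTCGCGC overlap at 2 places, so that its 5 matches fill 3 stretches.
Cdk2, chr10:128705002-128705301, minus strand: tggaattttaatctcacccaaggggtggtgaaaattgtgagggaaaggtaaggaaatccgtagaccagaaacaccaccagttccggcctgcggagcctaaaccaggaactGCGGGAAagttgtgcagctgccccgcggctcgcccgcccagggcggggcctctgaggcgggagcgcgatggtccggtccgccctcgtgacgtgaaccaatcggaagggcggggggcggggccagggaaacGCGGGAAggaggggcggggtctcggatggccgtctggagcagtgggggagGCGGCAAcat
Cdc6, chr11:98907901-98908200, plus strand: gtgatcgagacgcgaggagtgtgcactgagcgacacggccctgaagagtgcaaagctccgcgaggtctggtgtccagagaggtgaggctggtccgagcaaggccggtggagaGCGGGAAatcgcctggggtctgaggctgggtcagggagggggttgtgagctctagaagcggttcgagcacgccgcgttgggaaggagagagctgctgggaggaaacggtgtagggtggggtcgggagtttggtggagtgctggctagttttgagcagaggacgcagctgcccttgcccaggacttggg
Mcm6, chr1:128359656-128359955, minus strand: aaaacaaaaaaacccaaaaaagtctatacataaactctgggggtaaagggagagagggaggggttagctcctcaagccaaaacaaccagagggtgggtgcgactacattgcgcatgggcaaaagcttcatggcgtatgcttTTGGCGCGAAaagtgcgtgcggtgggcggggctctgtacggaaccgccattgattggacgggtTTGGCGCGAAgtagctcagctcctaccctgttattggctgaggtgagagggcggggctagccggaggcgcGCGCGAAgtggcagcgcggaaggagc
Pola1, chrX:93632106-93632405, minus strand: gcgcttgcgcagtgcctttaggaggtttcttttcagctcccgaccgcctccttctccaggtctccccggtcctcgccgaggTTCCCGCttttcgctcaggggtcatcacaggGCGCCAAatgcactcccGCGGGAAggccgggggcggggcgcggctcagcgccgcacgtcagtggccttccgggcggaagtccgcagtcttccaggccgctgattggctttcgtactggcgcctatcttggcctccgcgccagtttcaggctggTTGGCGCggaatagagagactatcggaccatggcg
Cdc45, chr16:18811923-18812222, minus strand: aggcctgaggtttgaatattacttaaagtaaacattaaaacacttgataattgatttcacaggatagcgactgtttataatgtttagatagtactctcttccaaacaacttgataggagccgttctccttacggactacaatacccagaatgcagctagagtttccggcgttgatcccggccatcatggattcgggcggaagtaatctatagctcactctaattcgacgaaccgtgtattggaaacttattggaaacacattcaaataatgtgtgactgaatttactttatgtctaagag
Orc3, chr4:34614893-34615192, minus strand: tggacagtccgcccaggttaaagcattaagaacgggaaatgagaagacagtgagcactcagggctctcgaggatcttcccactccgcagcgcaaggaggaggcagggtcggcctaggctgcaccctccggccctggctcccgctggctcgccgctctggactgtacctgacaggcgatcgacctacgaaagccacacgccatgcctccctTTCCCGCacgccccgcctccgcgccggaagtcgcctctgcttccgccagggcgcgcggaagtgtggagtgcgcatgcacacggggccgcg

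Among genes with a window, E2F words were present in 23 of 35 that rose, in 3 of 5 that were not called and in Chaf1a, and 5 genes are too few for a comparison. The CCAAT box, searched as CCAAT on both strands, was found in 24 of the 41 genes (58.5%) and in 42.0% of the array genes. Its matches can share letters with E2F words. In 3 of the 41 genes an E2F word overlapped a match of the CCAAT box or of the CHR. The CHR, an element of late cell cycle genes searched as TTTGAA on both strands, was found in 7 of the 41 genes (17.1%) and in 15.7% of the array genes. Cdc45 holds 2 CHR words and 2 CCAAT boxes in the window printed above.

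**Figure D2:**
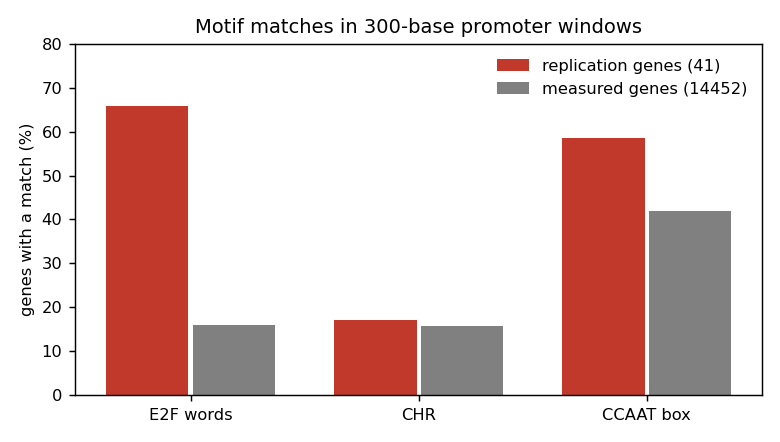
Share of genes with at least 1 match in a 300-base promoter window, in percent, for the 41 replication genes with a window (red) and the 14452 array genes with a window (grey). E2F words stand at 65.9% against 16.0%, while CHR matches stand at 17.1% against 15.7% and CCAAT boxes at 58.5% against 42.0%.

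All 7 cyclin and kinase genes rose. Ccne2, whose product activates CDK2 at the start of S phase, had 10.25, 10.85 and 10.26 in KO and 7.12, 7.01 and 7.50 in WT. It rose by 3.24 ± 0.20, or 9.46-fold (limma adjusted p = 5.8e-05), and 0.82% of all genes had a larger difference. Ccna2, the cyclin that keeps CDK2 active through S phase, had 11.68, 12.05 and 11.57 in KO and 9.36, 9.07 and 9.29 in WT, a rise of 2.53 ± 0.15 (limma adjusted p = 4.9e-05). Both cyclins had a gap of more than 2 between the lowest KO array and the highest WT array, 2.76 for Ccne2 and 2.21 for Ccna2. Cdk2 itself, the catalytic partner, had 10.15, 10.14 and 9.83 in KO and 8.76, 8.65 and 8.59 in WT and rose by 1.37 ± 0.12 (limma adjusted p = 0.00019). Cdc25a, the phosphatase that removes the inhibitory phosphate from CDK2, had 10.24, 10.01 and 10.30 in KO and 9.19, 9.15 and 9.13 in WT and rose by 1.02 ± 0.10 (limma adjusted p = 0.00033). KO and WT arrays did not overlap in any of the 4 genes. Ccne1, the other cyclin E gene, rose by 1.02 ± 0.20 at a probe set that may also detect other transcripts. At its other probe set Ccne1 rose by 1.31. The kinase gene Cdc7 and its activator Dbf4 showed smaller rises of 0.68 ± 0.09 and 0.93 ± 0.13.

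Among 9 origin recognition and loading genes 5 rose and 4 were not called. Cdc6, the ATPase that recruits the helicase to the origin, had 10.65, 11.22 and 10.62 in KO and 8.19, 7.96 and 8.34 in WT. It rose by 2.67 ± 0.18, or 6.36-fold (limma adjusted p = 8.7e-05), and its single E2F word lies in the printed window. Gmnn, which encodes geminin, the inhibitor of licensing, had 11.23, 11.64 and 11.23 in KO and 9.60, 9.72 and 9.91 in WT and rose by 1.63 ± 0.14 (limma adjusted p = 0.00022). Its target Cdt1 had 12.30, 12.54 and 12.26 in KO and 11.56, 11.59 and 11.58 in WT and rose by 0.79 ± 0.10 (limma adjusted p = 0.0010). The inhibitor and its target were thus both higher in every KO array than in every WT array. Orc6, the smallest subunit of the origin recognition complex, had 9.90, 10.46 and 10.03 in KO and 8.81, 8.80 and 9.02 in WT and rose by 1.25 ± 0.16 (limma adjusted p = 0.0010). Orc2 rose by 0.85 ± 0.19 (limma adjusted p = 0.013), with nearly the same size at each of its 3 probe sets, 0.85 at all of them. Without WT replicate 2 the difference of Orc2 was 0.76 (limma adjusted p = 0.054).

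The other subunits of the complex differed little at their chosen probe sets. Orc3 had 9.26, 9.53 and 9.41 in KO and 9.14, 9.40 and 9.31 in WT, a difference of 0.12 ± 0.11 (limma adjusted p = 0.47). Orc4 had 8.92, 9.47 and 9.42 in KO and 9.35, 9.42 and 9.50 in WT, a difference of -0.16 ± 0.15 (limma adjusted p = 0.49), which was 0.016 without KO replicate 1. In both genes the KO and WT arrays overlapped at the chosen probe set, and 0 of their 7 probe sets were called. Another probe set of Orc3 had every KO array above every WT array (difference 0.26, limma adjusted p = 0.077). Another of Orc4 had every KO array below every WT array (difference -0.27, limma adjusted p = 0.099). The 4 probe sets of Orc4 gave differences from -0.27 to -0.15. Orc5 had 9.41, 9.95 and 9.37 in KO and 9.12, 9.09 and 9.27 in WT, so that its arrays did not overlap, with a difference of 0.42 ± 0.16 (limma adjusted p = 0.098). For Orc1, the largest subunit, the answer depended on the probe set. Its chosen probe set had 7.04, 7.04 and 7.03 in KO and 7.09, 6.87 and 7.00 in WT, a difference of 0.05 ± 0.09 (limma adjusted p = 0.70). Its other probe set had 8.04, 8.95 and 7.87 in KO and 5.21, 5.72 and 5.91 in WT, a rise of 2.67 ± 0.30 (limma adjusted p = 0.00065). The mean of both rose by 1.36 (limma adjusted p = 0.00056). When every array was scaled to its hybridization controls, Orc1, Orc3 and Orc5 were called with differences of 0.42, 0.48 and 0.78. Orc4 turned to 0.21 (limma adjusted p = 0.29). Under that scaling 7793 of all genes rose and 1314 fell, against 3385 and 3379 in the values as deposited.

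**Figure D3:**
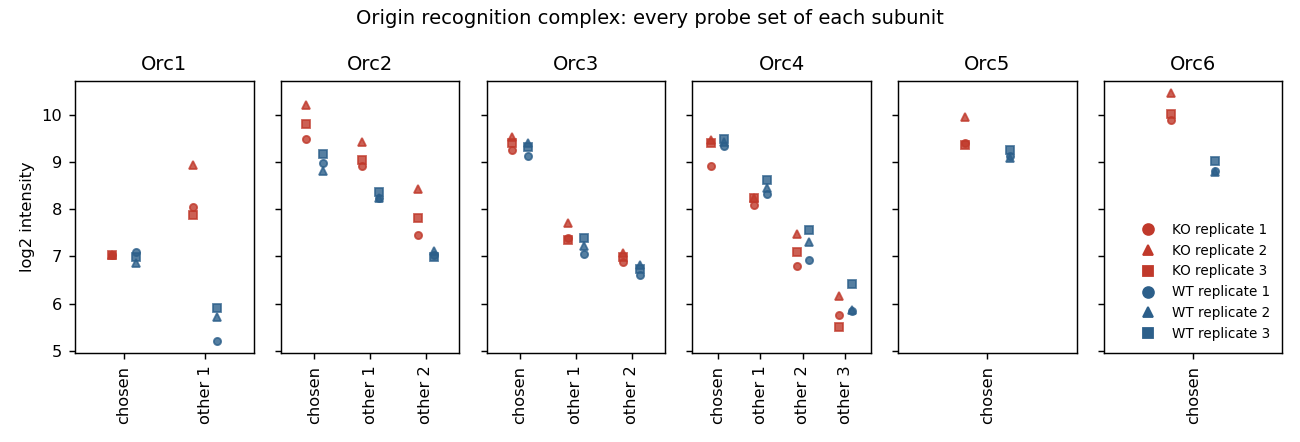
Log2 intensity of every probe set of the 6 origin recognition complex genes on the 3 KO arrays (red, left of each pair) and the 3 WT arrays (blue, right of each pair). Only KO against WT within a probe set can be compared, and the chosen probe set is the one with the highest mean. The chosen probe set of Orc1 shows 7.03 to 7.04 in KO and 6.87 to 7.09 in WT, while its other probe set shows 7.87 to 8.95 and 5.21 to 5.91.

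Of 12 helicase genes 11 rose, with a median difference of 1.36. Gins1, a subunit of the GINS complex that completes the active helicase, had 10.36, 10.93 and 10.51 in KO and 8.09, 8.10 and 8.27 in WT and rose by 2.45 ± 0.15 (limma adjusted p = 6.3e-05). Mcm10, which helps the assembled helicase to start unwinding, had 9.80, 10.11 and 9.78 in KO and 7.40, 7.38 and 7.70 in WT and rose by 2.40 ± 0.13 (limma adjusted p = 4.2e-05). Cdc45, which ties GINS to the MCM ring, had 8.78, 9.09 and 8.74 in KO and 6.69, 6.52 and 7.05 in WT and rose by 2.11 ± 0.16 (limma adjusted p = 0.00013). In these 3 genes the KO and WT arrays did not overlap, though the other probe set of Cdc45 differed by -0.088 (limma adjusted p = 0.49). Gins2 had 9.70, 10.32 and 9.83 in KO and 7.94, 7.79 and 8.19 in WT and rose by 1.98 ± 0.18 (limma adjusted p = 0.00026). Gins3 rose by 0.55 ± 0.12 (limma adjusted p = 0.014), a call lost without WT replicate 1 (limma adjusted p = 0.057) or WT replicate 2 (limma adjusted p = 0.055). Gins4 had 9.48, 9.91 and 9.67 in KO and 9.25, 9.41 and 9.54 in WT, with overlapping arrays and a difference of 0.29 ± 0.13 (limma adjusted p = 0.15). It was called at 0.65 under scaling to the hybridization controls.

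The 6 subunits of the MCM ring, which encircles DNA and is loaded during licensing, rose by similar amounts, from 1.11 for Mcm7 to 1.67 for Mcm3. Mcm3 had 11.83, 12.00 and 11.77 in KO and 10.23, 10.22 and 10.15 in WT (limma adjusted p = 4.3e-05). Mcm7 had 13.09, 13.23 and 13.00 in KO and 12.02, 11.95 and 12.01 in WT (limma adjusted p = 0.00017). Mcm5 rose by 1.45 ± 0.10, Mcm2 by 1.27 ± 0.12, Mcm6 by 1.20 ± 0.11 and Mcm4 by 1.19 ± 0.16, each with every KO array above every WT array. This spread of 0.55 between subunits can be set beside the spread between probe sets of 1 subunit. The 3 probe sets of Mcm5 gave rises from 1.45 to 2.21. Among probe sets at or above the median mean level of all probe sets, the spread was 0.76 for Mcm5 and 1.93 for Mcm3. It was smaller than 0.55 for Mcm2, Mcm7, Mcm4 and Mcm6, at 0.53, 0.50, 0.20 and 0.14. The chosen probe sets of Mcm2, Mcm3, Mcm4, Mcm5 and Mcm7 have names marking that they may also detect other transcripts (_s_at or _x_at). At the brightest probe set without such a suffix these 5 genes rose by 1.80, 1.82, 1.00, 2.21 and 1.60. The chosen probe sets of Gins2, Pold1 and Fen1 have such names too.

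All 8 polymerase and primase genes rose. Pola1, the catalytic subunit of polymerase alpha, had 9.87, 10.27 and 9.96 in KO and 8.0, 8.08 and 8.24 in WT and rose by 1.92 ± 0.13 (limma adjusted p = 8.1e-05). Pole, the catalytic subunit of the leading-strand polymerase epsilon, had 9.25, 9.52 and 9.22 in KO and 7.51, 7.66 and 7.66 in WT and rose by 1.72 ± 0.11 (limma adjusted p = 6.9e-05). The primase genes Prim2 and Prim1, whose products lay down the RNA primer, followed. Prim2 had 10.37, 10.78 and 10.06 in KO and 8.65, 8.67 and 9.20 in WT and rose by 1.56 ± 0.22 (limma adjusted p = 0.0017). Prim1 had 11.15, 11.57 and 11.23 in KO and 9.89, 9.83 and 9.99 in WT and rose by 1.41 ± 0.13 (limma adjusted p = 0.00024). No KO array of these 4 genes fell into the WT range. Pold1, Pola2, Pold2 and Pole2 rose less, by 0.88 ± 0.11, 0.80 ± 0.12, 0.69 ± 0.10 and 0.57 ± 0.14. The call of Pole2 was lost without WT replicate 1 (limma adjusted p = 0.074) or WT replicate 2 (limma adjusted p = 0.075).

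Of 9 genes for the clamp, its loader and the single-strand binding protein RPA, 8 rose with a median of 0.82 over the 9. Pcna, the sliding clamp, had 13.24, 13.52 and 13.33 in KO and 12.76, 12.77 and 12.81 in WT and rose by 0.58 ± 0.10, or about 1.5-fold (limma adjusted p = 0.0037). Rfc4, a small subunit of the clamp loader, had 10.72, 11.37 and 10.83 in KO and 9.46, 9.35 and 9.69 in WT and rose by 1.47 ± 0.18 (limma adjusted p = 0.00099). The other small subunits Rfc5, Rfc3 and Rfc2 rose by 1.28 ± 0.13, 1.25 ± 0.25 and 0.82 ± 0.09, and the large subunit Rfc1 by 0.41 ± 0.09. Rfc3 had the widest KO spread, with 8.82, 9.89 and 9.24. Rpa3 had 10.90, 11.29 and 10.92 in KO and 10.15, 10.10 and 10.28 in WT and rose by 0.86 ± 0.13 (limma adjusted p = 0.0021), and Rpa2 rose by 0.69 ± 0.11. Rpa1, the large DNA-binding subunit, had 12.38, 12.49 and 12.31 in KO and 12.37, 12.44 and 12.53 in WT, with overlapping arrays and a difference of -0.05 ± 0.09 (limma adjusted p = 0.71). Its other probe set differed by -0.016, and its chosen probe set by 0.31 under scaling to the hybridization controls (limma adjusted p = 0.055).

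All 6 genes read for flap removal, ligation, chromatin assembly and fork protection rose. Lig1, the ligase that seals lagging-strand pieces, had 11.67, 11.94 and 11.60 in KO and 10.13, 10.12 and 10.25 in WT and rose by 1.57 ± 0.11 (limma adjusted p = 1e-04). Wdhd1, which links the helicase to polymerase alpha, had 9.96, 10.13 and 9.92 in KO and 8.35, 8.63 and 8.41 in WT and rose by 1.54 ± 0.11 (limma adjusted p = 1e-04). Fen1, the flap endonuclease, and Chaf1b, a subunit of the chaperone that places histones behind the fork, rose by 1.23 ± 0.12 and 1.14 ± 0.17. Tipin and Timeless, which form a complex that stabilises paused forks, rose by 1.29 ± 0.14 and 0.99 ± 0.11. Tipin had 11.87, 12.30 and 11.86 in KO and 10.66, 10.69 and 10.81 in WT, and Timeless had 10.04, 10.18 and 9.90 in KO and 9.11, 9.13 and 8.92 in WT. In both genes the KO and WT arrays did not overlap.

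Subunits of 1 complex did not all differ by the same amount at their chosen probe sets, and the extremes, which were picked for their values, are described without a test. Gins1 and Gins4 lay 2.16 apart within GINS, and Pola1 and Pola2 1.13 apart within the polymerase alpha-primase complex. Orc6 and Orc4 lay 1.41 apart within the origin recognition complex. Polymerases epsilon and delta have accessory subunits outside the 52 genes. The histone-fold subunit Pole3 of polymerase epsilon rose by 1.22 ± 0.14 while its partner Pole4 fell by 0.64 ± 0.11, and of the delta subunits Pold3 rose by 0.82 ± 0.15 and Pold4 fell by 0.57 ± 0.10. Pole4 had 9.36, 9.49 and 9.59 in KO and 9.96, 10.17 and 10.23 in WT, and Pold4 had 9.10, 9.34 and 9.07 in KO and 9.68, 9.73 and 9.81 in WT. Under scaling to the hybridization controls neither fall was called (limma adjusted p = 0.14 for Pole4 and 0.18 for Pold4). Another probe set of Pole4 differed by -0.01 (limma adjusted p = 0.94). Probe sets of 1 gene can lie as far apart as the subunits of a complex. Over the 29 genes with at least 2 probe sets at or above the median mean level, the spread of their differences had a median of 0.22 but was 2.62 for Orc1, 2.20 for Cdc45, 1.93 for Mcm3 and 1.47 for Prim2.

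**Figure D4:**
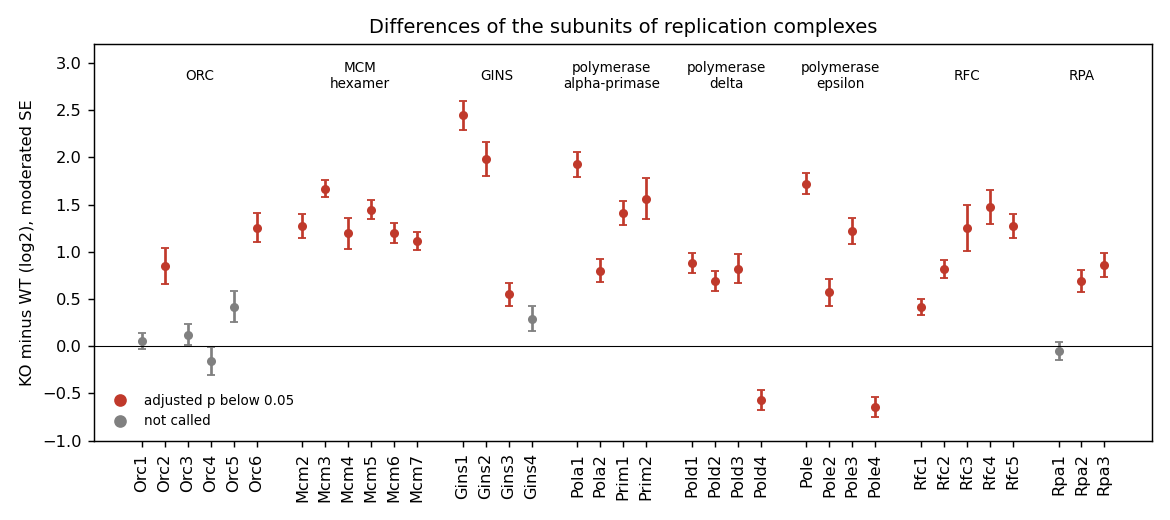
Difference KO minus WT in log2 units with its moderated standard error for each subunit of 8 replication complexes, red where the adjusted p was below 0.05 and grey where it was not. The MCM ring lies between 1.11 and 1.67, GINS spans 0.29 to 2.45, and Pold4 and Pole4 stand below 0 at -0.57 and -0.64.

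A further 63 genes of DNA replication, its checkpoint and the chromatin behind the fork were listed by function, and 62 were measured. Of these 46 rose and 5 fell, against 18.6% of all genes that rose and 18.6% that fell. Their median difference was 0.81. Esco2, the S-phase cohesin acetyltransferase, rose by 2.93 ± 0.23, the nuclease genes Dna2 and Exo1 by 2.85 ± 0.11 and 2.83 ± 0.17, and Skp2 and Dtl, substrate receptors of ubiquitin ligases, by 2.79 ± 0.19 and 2.60 ± 0.14. Dna2 had 10.57, 10.66 and 10.46 in KO and 7.65, 7.59 and 7.88 in WT. The other cohesin acetyltransferase, Esco1, went the other way and fell by 1.06 ± 0.08, with 9.97, 9.83 and 9.96 in KO and 10.94, 11.00 and 11.01 in WT. Pole4, Pold4, Rnaseh1 (fell by 0.41 ± 0.10) and Rmi1 (fell by 0.34 ± 0.10) were the others. Under scaling to the hybridization controls 1 of the 5 falls was called, that of Esco1. The calls of Rnaseh1 and Rmi1 were lost without KO replicate 1, WT replicate 2 or WT replicate 3, and that of Rmi1 also without KO replicate 3 or WT replicate 1.

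Replicates of KO did not carry the programme equally. The mean of the 51 genes was 10.48, 10.82 and 10.50 in KO replicates 1, 2 and 3, and 9.36, 9.37 and 9.50 in WT replicates 1, 2 and 3. KO replicate 2 had the highest KO value in 48 of the 51 genes, or 94.1%, against 44.8% of all genes. It exceeded the mean of the other KO arrays by a median of 0.33 in the 51 genes and of 0.04 in all genes. The exceptions were Cdk2 and Rfc2, highest in KO replicate 1, and Cdc25a, highest in KO replicate 3. Among WT arrays replicate 3 was highest in 36 of the 51 genes, or 70.6%, against 43.6% of all genes. Without KO replicate 2 still 45 of 51 genes rose, with a median of 1.07, and without KO replicate 1 also 45, with a median of 1.23.

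Markers of several other cell types moved with the genotype as well, read against the 18.6% of all genes that rose and 18.6% that fell. All 11 measured T cell markers fell, and their mean level was 10.60, 9.34 and 10.79 in KO and 12.17 to 12.18 in WT. Of erythroid markers 12 of 12 rose, with means of 10.21 to 11.24 in KO and 7.67 to 8.02 in WT. Of progenitor markers 8 of 8 rose, with means of 10.05 to 10.22 in KO and 7.17 to 7.19 in WT. For neutrophils 11 of 14 rose, at 9.79 to 12.37 in KO and 6.14 to 7.05 in WT, and for mast cells, basophils and eosinophils 9 of 12, at 8.99 to 9.44 in KO and 5.43 to 5.54 in WT. Monocyte and macrophage markers rose in 8 of 9, at 8.95 to 10.17 in KO and 6.01 to 6.41 in WT. The counts for B cells and immature thymocytes were not above those shares, and these lists are too short to place them below. For B cells 1 of 9 rose, at 6.48 to 7.80 in KO and 6.00 to 6.43 in WT, and for immature thymocytes 1 of 8 rose and 1 fell, at 7.67 to 8.93 in KO and 7.25 to 7.32 in WT. All 14 measured mitosis genes rose, with a median difference of 2.41 and means of 10.48 to 10.97 in KO and 8.21 to 8.35 in WT.

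KO replicate 2, with the highest level of the replication genes, also had the lowest T cell mean and the highest erythroid, B cell, immature thymocyte and mitosis means of the KO arrays. The B cell and thymocyte means rest on a few genes. Rag1, of the recombinase of developing lymphocytes, had 6.40, 11.41 and 6.03 in KO and 4.10, 4.47 and 4.25 in WT, and the B cell factor Ebf1 had 5.91, 11.22 and 5.64 in KO and 4.62, 4.59 and 4.70 in WT, and neither was called. Dntt, Themis, Ms4a1 and Fcrla of the same lists were lowest of the KO arrays in KO replicate 2. The KO replicate 2 means for neutrophils, monocytes, progenitors, and mast cells, basophils and eosinophils were the lowest of the KO arrays. The part of these cells in the rise of the replication genes was not tested. In RNA of whole cell preparations, a change in the number of cells of a type and a change in RNA per cell cannot be told apart, and RMA intensities have no zero by which a marker could be called absent.

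**Figure D5:**
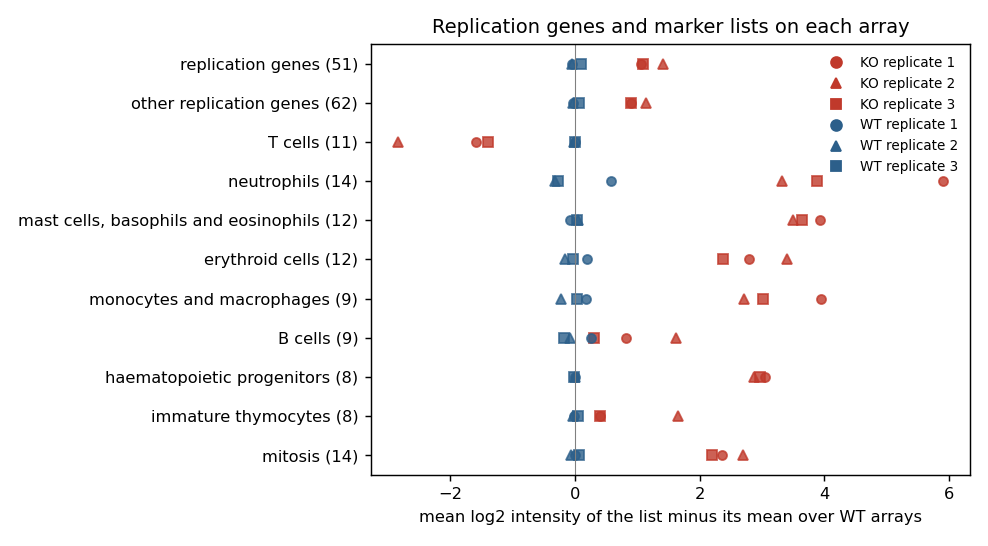
Mean log2 intensity of the 51 replication genes, of the other replication genes and of each marker list on each array, minus the mean of that list over the 3 WT arrays; the number of genes measured is in brackets. Red symbols are KO arrays and blue symbols WT arrays. The T cell list is lower on every KO array, and KO replicate 2 (triangle) is the rightmost KO array for both lists of replication genes, erythroid cells, B cells, immature thymocytes and mitosis genes.

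Most genes had further probe sets. For 37 genes there were 55 others, of which 42 had a mean at or above the median mean level of all probe sets, 5.77, and 30 of these 42 rose. Of the 13 below that level 1 rose, and 0 of all 55 fell. At their brightest probe sets 18.6% of all genes rose, and no share over all further probe sets was computed. The level is a mean over KO and WT arrays, so a probe set can reach it through its KO arrays. This was so for the other probe set of Orc1 (mean 8.29 in KO and 5.61 in WT) and 1 of Mcm5 (6.90 and 5.26). The counts above and below the level are therefore not compared. In 28 of the 42 the difference was larger than at the chosen probe set. Cdc45 and Mcm3 each had a further probe set above that level with a difference of -0.088 and -0.11, neither of them called, beside chosen probe sets at 2.11 and 1.67. Prim2 likewise had 1 at 0.093 beside 2 that rose. Cdc7, Rpa2 and Gins3 each had a further probe set above that level that was higher in KO but not called. These differed by 0.34, 0.56 and 0.69 (limma adjusted p = 0.14, 0.095 and 0.051), with overlapping arrays for Cdc7 and Rpa2.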

How the data were processed

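RNA of splenic T cells from 3 miR-142 KO and 3 WT mice was measured on 1-colour Affymetrix arrays. The deposited log2 intensities are RMA values made by the authors, per the submitters' processing notes, and were kept as given; scanner files were not used here. Of 45101 probe sets, 64 controls were left out and 45037 tested with limma 3.58.1 (lmFit, eBayes; R 4.3.3), KO minus WT, with Benjamini-Hochberg adjustment and a threshold of 0.05. Probe sets were named from the platform's annotation: 34945 had 1 gene, 932 several and 9160 were not listed. The brightest probe set on average stood for each of 18193 genes. Each mouse gave 1 array, so n is 3 mice a group, and the number of arrays limits the precision. Replicate numbers name samples and do not pair them. The script was tested on simulated data. The replication genes, the other lists and the alternatives were chosen with earlier results of these data known, and 1 alternative, leaving out probe sets with _s_at or _x_at names, was added after the values were seen. The rule for named genes took, with values per array, up to 4 called genes of each role with the largest differences and at least 1 that was not called, the 5 largest rises and falls among the other replication genes, E2f1 to E2f8, and Mir142. Some genes taken by this rule are given by their differences only, among them Orc2, Rfc5, Fen1, Chaf1b, the E2F genes and part of the other replication genes. Further list members, such as Cdt1, Mcm7, Pcna and the Orc1 probe sets, as well as Rag1, Ebf1 and the subunit extremes were added after their values were seen. Alternatives were another normalization or scaling, moderation settings, array weights, a replicate block, other thresholds and probe sets, and leaving out each array.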

Additional observations from a re-analysis of the deposited data

How the results depend on the processing

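Of the 51 replication genes 41 to 49 rose and 0 fell under every alternative in which they were counted, with 42 to 45 rising when 1 array was left out. Reading each gene at another of its probe sets was not counted in this way. At the other probe set with the lowest difference, 12 single genes lost their call, 7 turned in direction, 25 were unchanged and 1 gained a call. These single genes include the named other replication genes. In the counted alternatives the median difference of the 51 genes stayed between 1.03 and 1.27, leaving out arrays included. It was 1.56 when arrays were scaled to the hybridization controls. That scaling put the median of all genes at 0.31 against -0.06. With it 7793 of all genes rose and 1314 fell, against 3385 and 3379 as deposited, so counts under it have a different background. Of the other replication genes 36 to 53 rose in the counted alternatives. Of these 5 fell in the main setting, 1 under scaling to the hybridization controls, 2 with a change of at least 1.5-fold, 8 with the mean of each gene's probe sets, and 3 to 5 with 1 array left out (3 without KO replicate 1 and 3 without WT replicate 2). Among single genes the direction turned for Orc1 at -0.033 with repeated quantile normalization and over -0.0051 to 0.10 with 1 array left out, and for Orc4 over -0.26 to 0.016. Scaling to the hybridization controls turned Orc4 to 0.21, Rpa1 to 0.31 and Rmi1 to 0.029. Another probe set gave -0.068 for Cdt1, -0.11 for Mcm3, -0.088 for Cdc45, -0.025 for Pola1, -0.048 for Pola2, -0.035 for Chaf1b and -0.17 for Skp2. The cause was not tested. Samples with the same replicate number did not deviate together (correlations of 0.10, -0.24 and -0.20, and 1 of 3 was closest to its own number), and with the replicate as a block 45 of the 51 genes rose and 0 fell, and 41 of the other replication genes rose and 4 fell. The number of arrays limits the precision.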

Other observations

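Genes for the E2F factors themselves, which were not among the replication genes, are given as values. E2f1, E2f2 and E2f3, which activate S-phase genes, rose by 1.90, 1.39 and 1.34. E2f7 and E2f8, which repress such genes late in S phase, rose by 3.30 (limma adjusted p = 9.6e-05) and 2.93 (limma adjusted p = 2.1e-05). E2f6 rose by 0.54 (limma adjusted p = 0.033), E2f5 fell by 0.83 (limma adjusted p = 0.0056), and E2f4 differed by 0.017 (limma adjusted p = 0.93).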
